A study of Mus musculus with 16 samples.

Results

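Imprinted genes are expressed mainly from the allele of 1 parent. A set of 10 such genes with roles in growth, H19, Meg3, Dlk1, Peg3, Peg10, Grb10, Cdkn1c, Mest, Plagl1 and Ndn, were taken by name from a table of 31274 genes measured in mouse seminal vesicles (SV). All 10 were found in the table. The set is defined by names alone, but it was drawn up with earlier results of these data known. In the SV of wild-type (WT) mice at week 5, Meg3, Plagl1, Cdkn1c, Grb10, Ndn and Mest, the 6 genes above 1 FPKM on average after vehicle, were called higher after neonatal exposure to diethylstilboestrol (DES), against 22.7% of all genes above that level. The call of Mest was lost in 17 of 27 alternative analyses. Dlk1, Peg3 and Peg10 were also higher, but could be called only through their level after DES, and H19 was barely detected in any group. In mice lacking oestrogen receptor α (αERKO), 7 of the genes were abundant enough for a call. After DES 0 of the 7 were called higher, where 0.0966% of all genes that could be called were, and 3 were called lower, where 1.55% were, though the 3 calls did not hold in many alternative analyses.

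RNA-seq was performed on SV of C57BL/6 males at week 5, in 4 groups of 4 samples. WT-DES and αERKO-DES males had received DES in corn oil by subcutaneous injection, at 2 µg per pup each day from day 1 to day 5, and WT-veh and αERKO-veh males had received corn oil. αERKO mice lack ERα in every tissue and throughout life. For RNA samples in general, the methods of the study describe pools for WT-DES and single animals for the other groups. The pools described are fewer than the 4 labelled WT-DES samples. These samples may thus not be 4 distinct pools, and their spread may not be a spread between animals. Values were FPKM, fragments scaled to transcript length and to the mapped fragments of the library, and read depth cannot be recovered from them.

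Imprinting is set in the germ line by DNA methylation, and imprinted genes lie in clusters that share a control region. Many paternally expressed genes, such as Dlk1, Peg3, Plagl1 and Mest, are linked to prenatal growth, while maternally expressed Cdkn1c and Grb10 restrain it. Most of these genes are abundant in fetal and neonatal tissues and decline after birth. DES is a synthetic oestrogen that acts through ERα, and the SV is an androgen-dependent accessory gland of secretory epithelium with stroma and smooth muscle around it.

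Promoter windows of 4 of the genes are shown because these were the 4 with the largest changes after DES in WT mice on the log2(FPKM + 1) scale. By ratio of mean FPKM, Peg10 (5.26-fold) stood above Meg3 (4.04-fold). Each runs from 250 bases before to 50 bases after a RefSeq transcription start on GRCm38.p6, 5′ to 3′ on the strand of the gene. Capitals mark matches on either strand to 5 motifs: the GC box GGGCGG, the TATA box TATAAA, the AP-1 site TGANTCA, the palindromic oestrogen response element, and the core of the Plagl1 recognition site. The windows are Peg3 at chr7:6730370-6730669 on the minus strand, Plagl1 at chr10:13090582-13090881, Dlk1 at chr12:109452573-109452872 and Meg3 at chr12:109540746-109541045, the last 3 on the plus strand.
Peg3: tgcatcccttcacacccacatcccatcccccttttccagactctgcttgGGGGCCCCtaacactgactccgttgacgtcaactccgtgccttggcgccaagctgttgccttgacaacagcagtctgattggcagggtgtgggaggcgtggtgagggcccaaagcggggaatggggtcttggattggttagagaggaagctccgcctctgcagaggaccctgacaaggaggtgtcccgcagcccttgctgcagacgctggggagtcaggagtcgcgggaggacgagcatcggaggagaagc
Plagl1: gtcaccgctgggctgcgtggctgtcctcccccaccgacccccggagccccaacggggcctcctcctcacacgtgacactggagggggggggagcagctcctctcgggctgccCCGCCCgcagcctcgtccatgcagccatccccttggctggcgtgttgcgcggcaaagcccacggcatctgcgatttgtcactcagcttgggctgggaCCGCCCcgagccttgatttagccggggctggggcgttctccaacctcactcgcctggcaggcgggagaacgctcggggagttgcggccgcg
Dlk1: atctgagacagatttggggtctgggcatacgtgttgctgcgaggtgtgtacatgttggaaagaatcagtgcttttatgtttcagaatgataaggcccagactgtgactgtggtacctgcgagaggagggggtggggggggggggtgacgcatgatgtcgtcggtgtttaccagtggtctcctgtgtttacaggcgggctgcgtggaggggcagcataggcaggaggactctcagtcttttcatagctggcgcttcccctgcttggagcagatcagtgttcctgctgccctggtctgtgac
Meg3: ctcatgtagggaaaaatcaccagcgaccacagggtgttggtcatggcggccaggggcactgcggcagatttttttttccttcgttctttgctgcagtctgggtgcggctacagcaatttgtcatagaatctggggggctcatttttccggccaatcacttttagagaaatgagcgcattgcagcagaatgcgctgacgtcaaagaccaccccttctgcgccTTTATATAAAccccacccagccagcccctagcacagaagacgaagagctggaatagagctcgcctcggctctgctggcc

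Peg3 held 1 match to the Plagl1 core, which 1.07% of the 32817 promoter windows of the mouse set held. Plagl1 held 2 GC boxes, a motif found in 35.6% of windows. Meg3 held 2 matches to the TATA box, 1 on each strand and overlapping, in a motif found in 13.6% of windows. Dlk1 held none of the 5 motifs. RefSeq windows were matched for 7 of the 10 genes, 11 windows in all, and those of H19, Peg10 and Cdkn1c were not used here. None of the 11 held an AP-1 site, present in 7.81% of all windows, or an oestrogen response element, present in 0.0701%. The other matched genes differed in GC boxes, with 5 in the first Grb10 window, 2 in Ndn and 1 in each Mest window.

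Esr1, which encodes ERα, was read first as a check of the genotype labels. It was 4.43, 4.55, 3.70 and 2.81 FPKM in WT-veh and 8.74, 19.64, 12.99 and 15.71 FPKM in WT-DES. αERKO-veh samples ranged from 1.30 to 1.75 FPKM and αERKO-DES samples from 0.91 to 1.64 FPKM, below every WT sample. Summed FPKM per sample was lowest in WT-DES, at 375207 to 437619, and lay between 479045 (an αERKO-veh sample) and 652708 (a WT-veh sample) elsewhere. The first WT-DES sample stood apart from the other 3, with a Pearson correlation of 0.970 to 0.975 on the log2 scale where the others reached 0.987 among themselves. Its summed FPKM of 8 smooth muscle markers was 3740, against 836 to 1310 in the other 3 WT-DES samples.

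H19 is a long non-coding RNA expressed from the maternal allele, at chr7:142575529-142578143 on GRCm38. It was 0.00 FPKM in 7 of the 16 samples and at most 0.15 FPKM, in the fourth WT-DES sample. It lay below the minimum of 1 FPKM for a test, so no change was tested for it. With no minimum on FPKM its log2 change in WT-DES against WT-veh was 0.06 (adjusted p = 0.233, limma).

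Changes are given as differences of log2(FPKM + 1) with their standard errors, which understate the change of genes near 0. A gene was called when its Benjamini-Hochberg adjusted p from limma did not exceed 0.05, its mean FPKM differed at least 1.5-fold in either direction and mean FPKM was above 1 in 1 of the 2 groups. All 9 genes that could be tested were called higher in WT-DES when compared with WT-veh, and 28.9% of all 15988 tested genes were. A gene could be tested when its mean was above 1 FPKM in any group. Dlk1 and Peg10 passed this minimum through WT-DES alone, and 1165 of the 1295 genes that did so were called higher, so those calls were largely fixed by the minimum. Peg3, at a mean of 0.517 FPKM in WT-veh, likewise met the minimum of a call here only through WT-DES. The other 6 genes were above it in WT-veh, and 6 of 6 were called higher, against 22.7% of the 14217 genes above it there. The median change of the 6 was 1.12, against -0.11 for those genes. In 5 of the 6, every WT-DES sample exceeded every WT-veh sample, as in 28.0% of those genes (32.7% of all tested). With no minimum on FPKM all 10 genes were tested and 8 were called, H19 and Mest being the exceptions. The 6 held 3 maternally and 3 paternally expressed genes. FPKM does not separate the alleles, so which allele the RNA came from was not measured.

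**Figure D1:**
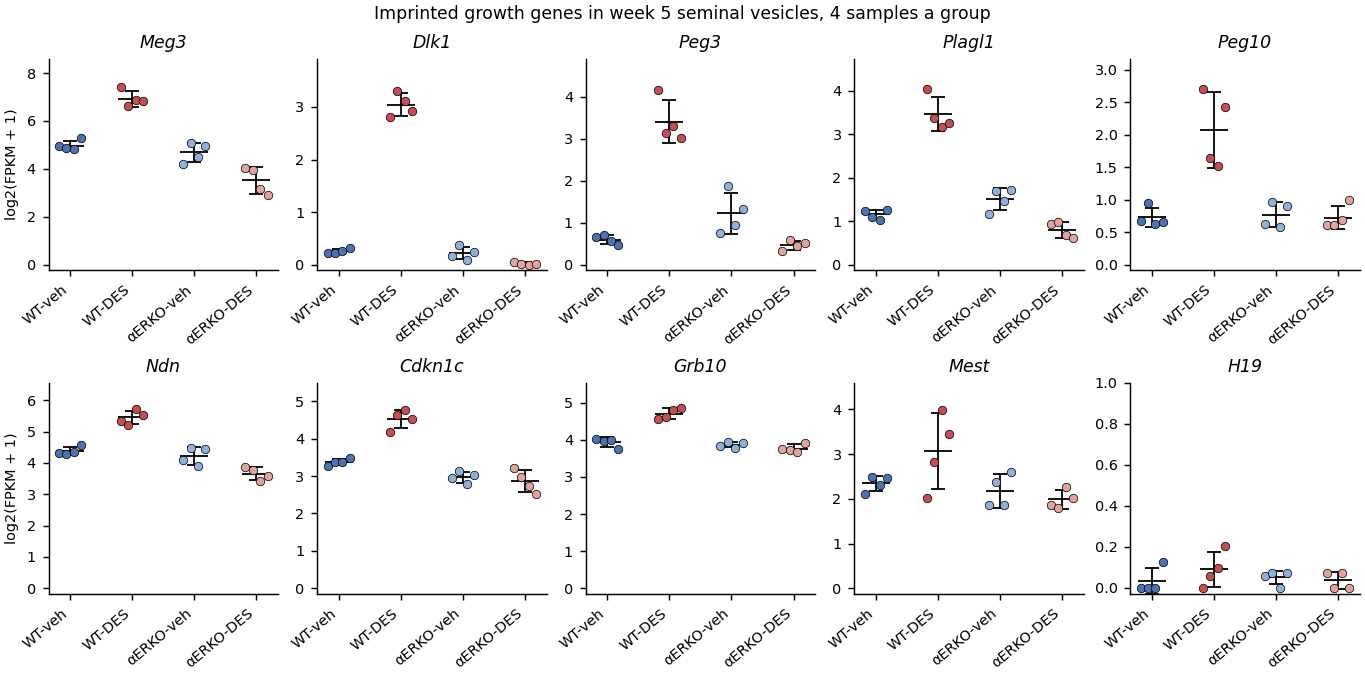
Expression of the 10 imprinted genes as log2(FPKM + 1) in the 4 groups, with a point for each sample and bars for the mean ± SD of 4 samples. Axes differ between panels. WT-DES stood above the other groups in 8 panels, the samples overlapped in Mest, and H19 stayed near 0 in all groups.

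Meg3 is a maternally expressed long non-coding RNA at chr12:109541001-109571726. It was the most abundant of the 10 in WT-veh, at 29.82, 28.24, 27.07 and 37.67 FPKM. In WT-DES it was 168.76, 98.40, 114.87 and 113.64 FPKM. The groups were well separated, and the mean rose 4.04-fold, a log2 change of 1.96 (SE 0.26, adjusted p = 6.88e-06).

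Dlk1 encodes a transmembrane protein with EGF-like repeats that holds back the differentiation of fat precursor cells, and it is expressed from the paternal allele. It lies at chr12:109452823-109463336, 77.7 kb upstream of Meg3 in the same cluster. It was close to undetected in WT-veh, at 0.16, 0.17, 0.19 and 0.25 FPKM, and reached 6.03, 8.92, 7.60 and 6.63 FPKM in WT-DES. No WT-veh sample came near the lowest WT-DES sample. The log2 change was 2.79 (SE 0.11, adjusted p = 1.52e-10), and the ratio of mean FPKM was 37.9 from a WT-veh mean of only 0.193 FPKM.

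Peg3 and Plagl1 encode zinc finger proteins that bind DNA and are expressed from the paternal allele. Peg3, at chr7:6703892-6730431, was 0.57, 0.64, 0.47 and 0.39 FPKM in WT-veh and 16.96, 7.85, 8.87 and 7.15 FPKM in WT-DES. The first WT-DES sample was the highest by a wide margin, and the other 3 were still far above WT-veh. Its log2 change of 2.81 (SE 0.24, adjusted p = 9.86e-08) was close to that of Dlk1 on the log2(FPKM + 1) scale, and the order of the pair depended on the scale. By ratio of mean FPKM, Peg3 rose 19.7-fold, less than Dlk1. Plagl1, at chr10:13060504-13131694, was 1.35, 1.15, 1.03 and 1.38 FPKM in WT-veh and 15.30, 9.36, 7.99 and 8.50 FPKM in WT-DES. Again the first WT-DES sample was highest and no samples overlapped. The log2 change was 2.30 (SE 0.18, adjusted p = 3.08e-08). Plagl1 is on the same chromosome as Esr1, 8.05 Mb away.

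Cdkn1c, Grb10 and Ndn encode proteins that restrain growth. Cdkn1c (p57), an inhibitor of cyclin-dependent kinases at chr7:143458339-143461050, was 8.65, 9.31, 9.35 and 10.15 FPKM in WT-veh and 17.22, 23.96, 25.99 and 22.24 FPKM in WT-DES. The WT-veh samples were tightly grouped and the WT-DES samples stood clear of them. The log2 change was 1.16 (SE 0.14, adjusted p = 3.35e-06). Grb10, an adaptor that dampens insulin and IGF receptor signalling, at chr11:11930508-12038683, was 15.30, 14.79, 15.10 and 12.57 FPKM in WT-veh and 22.50, 23.54, 26.74 and 28.18 FPKM in WT-DES. The groups did not overlap although this was among the smallest of the changes, at 0.76 (SE 0.08, adjusted p = 1.25e-06). Ndn, which encodes necdin, a protein of the MAGE family, at chr7:62346569-62350262, was 19.14, 18.63, 19.23 and 22.65 FPKM in WT-veh. It was 39.90, 36.44, 51.74 and 45.26 FPKM in WT-DES, with a log2 change of 1.08 (SE 0.14, adjusted p = 7.62e-06).

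Peg10, a gene derived from a retrotransposon and needed for the placenta, lies at chr6:4747306-4760517. It was 0.60, 0.93, 0.55 and 0.57 FPKM in WT-veh and 5.53, 2.12, 1.88 and 4.40 FPKM in WT-DES. The WT-DES samples varied widely but all exceeded WT-veh, with a log2 change of 1.35 (SE 0.22, adjusted p = 6.11e-05). Mest, which encodes a protein of the α/β-hydrolase family, at chr6:30723547-30748465, was 3.31, 4.59, 3.95 and 4.56 FPKM in WT-veh and 3.06, 6.07, 14.76 and 10.01 FPKM in WT-DES. It alone of the 9 overlapped between the groups, because the first WT-DES sample was below every WT-veh sample. Its log2 change of 0.73 (SE 0.31, adjusted p = 0.0475) was the least secure, and adjusted p ranged from 0.000809 to 0.261 over the alternative analyses. Leaving out the third WT-DES sample gave 0.42 (adjusted p = 0.181), and 13 of the 16 fits that each left out 1 sample ended the call. It was kept without WT-DES 1, WT-DES 2 or αERKO-veh 4.

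The first WT-DES sample was the highest of its group for Meg3, Peg3, Peg10 and Plagl1 and the lowest for Dlk1, Grb10, Cdkn1c and Mest. Without it, the count of called genes stayed at 9 of 9. Libraries also differed in how FPKM followed transcript length. The Spearman correlation of length with each sample's log2 deviation ran from -0.52 to -0.21 in WT-veh and from 0.16 to 0.19 in WT-DES, across 15049 genes. After correction for length all 9 genes were still called, with Meg3, whose longest transcript is 14548 nt, at 1.36 and Peg3 at 2.36. Rescaling without the 20 most abundant genes raised the median change of all genes by 0.39, and the 9 genes then ranged from 1.10 for Mest to 3.11 for Peg3.

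In order of mean FPKM, which is scaled to transcript length, WT-veh ran Meg3, Ndn, Grb10, Cdkn1c, Mest, Plagl1, Peg10, Peg3, Dlk1 and H19. Only Peg10 and Peg3 overlapped among neighbours in that order. In WT-DES, Meg3 (mean 124 FPKM) and Ndn (43.3) still led. Grb10 overlapped Cdkn1c, and Plagl1, Peg3, Mest and Dlk1 followed with overlapping ranges between neighbours. Dlk1, the ninth in WT-veh, was thus at 7.29 FPKM in WT-DES, above Peg10 at 3.48. In αERKO-DES, Grb10, Ndn, Meg3 and Cdkn1c overlapped each with the next, and Dlk1 was last at 0.015 FPKM. Gapdh, a housekeeping gene of most cells, was only 4.83 to 9.41 FPKM in this table, so levels between genes were read with caution.

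The loss of ERα alone was compared next. Dlk1 and Peg10 were below 1 FPKM on average in both αERKO-veh and WT-veh and could not be called. Of the other 7 genes 0 were called, against 7.79% of the genes that could be (7.12% of all tested). An unadjusted limma p of at most 0.05 was found for 2 of the 9 tested genes, below the 38.9% of all tested genes. These were Cdkn1c, with a log2 difference of -0.40 (SE 0.14, adjusted p = 0.0501), and Peg3, with 0.63 (SE 0.24, adjusted p = 0.0684). Cdkn1c was 6.75, 7.73, 5.85 and 7.20 FPKM in αERKO-veh, below all WT-veh samples. Peg3 was 0.69, 2.66, 0.94 and 1.49 FPKM there, above all WT-veh samples. Plagl1 was 1.24, 2.23, 1.74 and 2.29 FPKM (0.35, adjusted p = 0.151). In the model without the first WT-DES sample, Peg3 (adjusted p = 0.0209) and Plagl1 (adjusted p = 0.0491) were called, and Peg3 was also called without the first αERKO-veh sample (adjusted p = 0.029).

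After DES in αERKO mice, the estimated changes of the 9 genes ran from -1.17 for Meg3 to -0.04 for Peg10, and 6 of the 9 were not called. The estimate for Peg10 was above 0 with quantile normalization (0.16), with length correction (0.07) and without the second αERKO-veh sample (0.02). Dlk1 and Peg10, below 1 FPKM on average in both αERKO groups, could not be called. Of the other 7, 3 were called lower in αERKO-DES than in αERKO-veh, as were 1.55% of the genes that could be called (1.41% of all tested). Meg3 was 17.59, 33.03, 21.32 and 29.96 FPKM in αERKO-veh and 15.31, 14.59, 7.91 and 6.54 FPKM in αERKO-DES, a log2 change of -1.17 (SE 0.26, adjusted p = 0.0364). Plagl1 was 0.92, 0.97, 0.61 and 0.52 FPKM in αERKO-DES, with a change of -0.70 (SE 0.18, adjusted p = 0.0475). Ndn was 16.08, 21.53, 13.81 and 20.62 FPKM in αERKO-veh and 13.67, 12.67, 9.66 and 11.06 FPKM in αERKO-DES, a change of -0.56 (SE 0.14, adjusted p = 0.0486). These 3 did not overlap between the groups, nor did Dlk1 and Peg3, so 5 of 9 lay wholly lower, as did 6.57% of tested genes.

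These calls were fragile. No gene was called when the 2 groups were fitted on their own. Over the 16 fits that each left out 1 sample the count ran from 0 to 4, and it was 0 in 7 of them. Those 7 left out WT-veh 1 or 3, αERKO-veh 2 or 4, or αERKO-DES 1, 2 or 3, by the numbers of the labels. Dlk1 was 0.12, 0.29, 0.07 and 0.18 FPKM in αERKO-veh and 0.04, 0.01, 0.00 and 0.01 FPKM in αERKO-DES, all near the floor of the table, with a change of -0.20 (adjusted p = 0.274). Peg3 was 0.25, 0.50, 0.36 and 0.42 FPKM in αERKO-DES, with a change of -0.76 (SE 0.24, adjusted p = 0.085). The second αERKO-veh sample was the highest of its group for 7 of the 9 genes. It also had the highest sum of that group over fibroblast markers (1110 FPKM) and adipocyte markers (1040 FPKM).

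The remaining 4 genes were not called with DES in αERKO mice. Peg10 was 0.54, 0.95, 0.50 and 0.87 FPKM in αERKO-veh and 0.53, 0.52, 0.61 and 0.99 FPKM in αERKO-DES, and the groups overlapped. Grb10 stayed between 11.70 and 14.29 FPKM in both groups, with a change of -0.10 and a 95% confidence interval from -0.28 to 0.08. Cdkn1c ranged from 4.78 to 8.30 FPKM in αERKO-DES, with a change of -0.11 (95% confidence interval from -0.41 to 0.19). Mest ranged from 2.47 to 3.84 FPKM in αERKO-DES and from 2.61 to 5.11 FPKM in αERKO-veh, with a change of -0.18 (95% confidence interval from -0.85 to 0.48).

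**Figure D2:**
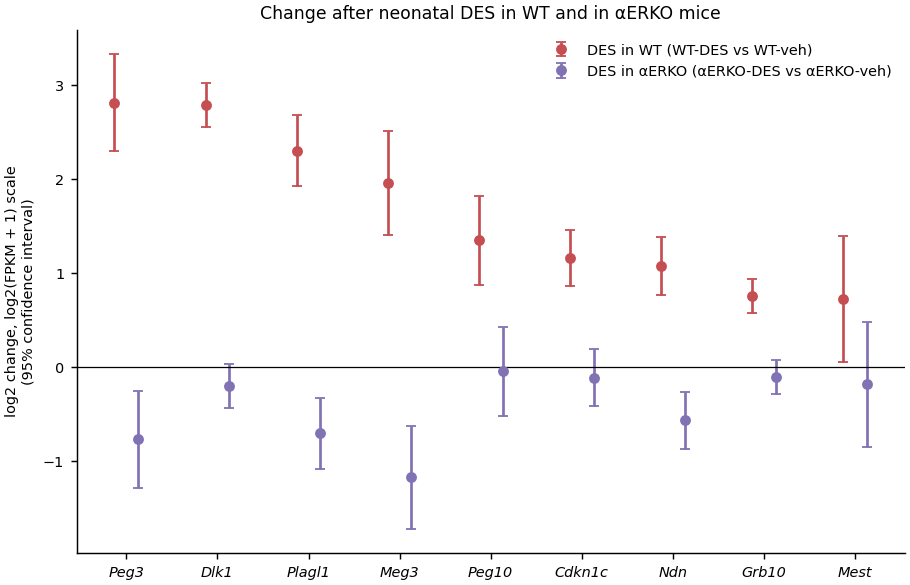
Change after neonatal DES in WT (red) and αERKO (purple) mice for the 9 tested genes, as the log2 difference on the log2(FPKM + 1) scale with its 95% confidence interval. The WT changes ran from 0.73 for Mest to 2.81 for Peg3, and the αERKO estimates from -1.17 to -0.04, with 3 of the 9 called.

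Whether the response to DES depended on genotype was tested directly, as the change in WT minus the change in αERKO. The difference was positive and called for 8 of the 9 genes, against 29.6% of all tested genes called in that direction. Without Dlk1 and Peg10, which were tested only through WT-DES, it was called for 6 of 7, against 24.7% of genes that passed the minimum in another group. Markers of other cell types moved in the same direction, with 8 of 8 fibroblast (median 1.76), 6 of 6 endothelial (1.59) and 6 of 6 adipocyte (4.54) markers called higher, and their part in the difference was not tested. It was 3.57 for Peg3 (SE 0.34, adjusted p = 5.26e-07), 3.13 for Meg3, 3.01 for Plagl1 and 2.98 for Dlk1. Differences were smaller for Ndn (1.64), Peg10 (1.39), Cdkn1c (1.27) and Grb10 (0.87). For Mest the difference was 0.91 (adjusted p = 0.0772) and was not called. It was called in 5 alternatives, which were leaving out the first WT-DES sample (1.26, adjusted p = 0.00338), sample weights (1.74, adjusted p = 0.000123), rescaling without the 20 most abundant genes (1.38, adjusted p = 0.0176), length correction (1.05, adjusted p = 0.0474) and the replicate block (0.91, adjusted p = 0.0499). All 9 genes were called lower in αERKO-DES than in WT-DES, where 29.6% of tested genes were, from -0.94 for Grb10 to -3.42 for Meg3. Dlk1, Peg3, Peg10 and Plagl1 were below 1 FPKM on average in αERKO-DES. The other 5 were above it there, and 5 of 5 were called lower, against 21.7% of such genes. These comparisons share samples, so their values do not support each other.

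Against WT-veh, αERKO-DES was called lower for 2 of the 9 genes, Meg3 (-1.46, SE 0.26, adjusted p = 0.00517) and Ndn (-0.72, SE 0.14, adjusted p = 0.00966), and 1.97% of tested genes were called lower. Only 6 of the 9 could be called here, since Dlk1, Peg10 and Peg3 were below 1 FPKM on average in both groups, and 2.19% of all genes that could be called were lower. Cdkn1c had a difference of -0.51 (adjusted p = 0.0406), and its ratio of means did not reach 1.5-fold. Without the first αERKO-DES sample it was called too, at -0.63 (adjusted p = 0.0117). In the same comparison 5 of 8 fibroblast markers (median -0.65) and 5 of 6 adipocyte markers (median -3.32) were called lower, and their part in these calls was not tested.

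Whether the genes near each of these moved with them was examined next. A list of 54 other imprinted genes in the table was used, and 38 of them could be tested. Whether each is imprinted in SV was not measured. Of the 38, 15 were called higher after DES in WT, 11 lower and 12 were not called, where 28.9% of all tested genes were called higher and 23.9% lower. Their median change was 0.22. Of the 15, 5 (Zim1, Mkrn3, Mirg, Slc38a4 and Dio3) were below 1 FPKM on average in WT-veh and met the minimum of a call only through WT-DES. Among the 33 genes above it in WT-veh 10 were called higher and 11 lower, with a median of 0.09, where 22.7% of all such genes were called higher and 26.8% lower. Rescaling without the 20 most abundant genes, which raised the median change of all genes by 0.39, gave 24 higher and 5 lower of 41 tested. The share of all genes called under that rescaling is not given here. On the log2(FPKM + 1) scale the largest rises were those of Rian (1.91), Slc38a4 (1.53), an amino acid transporter, and Dcn (1.48), an extracellular matrix proteoglycan. Dcn is also in the list of fibroblast markers used below. The largest falls were those of Phlda2 (-1.82), H13 (-1.52), a signal peptide peptidase, and Tssc4 (-1.32). By ratio of mean FPKM the order differed, with Zim1 rising 31.6-fold and Slc22a2, an organic cation transporter picked after its values were seen, falling 9.81-fold from a WT-veh mean of 1.69 FPKM (-1.20, SE 0.14, adjusted p = 2.85e-06). In the genotype difference 16 of the 38 were called higher and 11 lower, where 29.6% of all tested genes were called higher and 26.9% lower. Mirg, Mkrn3, Slc38a4 and Zim1 were tested only through WT-DES. Without these, 12 of 34 were called higher and 11 lower, against 24.7% and 29.2% of genes that passed the minimum in another group.

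Within 1 Mb of Dlk1 and Meg3, 3 neighbours could be tested. Rian was called higher, and so were Dio3 and Mirg, which met the minimum of a call only through WT-DES. Rian, a maternally expressed non-coding RNA 32.2 kb from Meg3, was 3.23, 3.50, 2.63 and 4.63 FPKM in WT-veh and 21.47, 11.08, 15.66 and 16.15 FPKM in WT-DES. As for Meg3, the first WT-DES sample was highest and the second lowest. The ratio of Meg3 to Rian lay between 7.04 and 8.88 in WT-DES and between 8.07 and 10.3 in WT-veh, so the pair rose by similar factors. Mirg, a host of microRNAs, changed by 0.84 (adjusted p = 0.000506), and its call was lost with quantile normalization (0.37, adjusted p = 0.086). Dio3, which inactivates thyroid hormone, changed by 1.19 (adjusted p = 8.91e-05). Rtl1 was below the minimum for a test. In αERKO-DES against αERKO-veh, Rian was called lower (-0.93, SE 0.22, adjusted p = 0.042), as Meg3 was.

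Near Peg3, Zim1 was 0.04, 0.03, 0.06 and 0.01 FPKM in WT-veh and 1.87, 0.78, 0.89 and 0.89 FPKM in WT-DES. Zim1 encodes a zinc finger protein and was almost absent without DES. Its log2 change was 1.00 (SE 0.13, adjusted p = 9.26e-06), and it was tested only because its WT-DES mean of 1.11 FPKM passed the minimum. Its call was lost after length correction (0.59), and without the first WT-DES sample or with quantile normalization it fell below the minimum for a test. Sgce, which encodes ε-sarcoglycan and shares a promoter region with Peg10, was 22.44 to 24.95 FPKM in WT-veh and 46.99 to 52.93 FPKM in WT-DES, a change of 1.02 (SE 0.10, adjusted p = 3.62e-07). Ppp1r9a, which lies on the other side of Peg10 and was picked after its values were seen, changed by 1.24 (SE 0.13, adjusted p = 6.78e-07). Near Ndn, Mkrn3 was 0.66, 0.51, 0.33 and 0.40 FPKM in WT-veh and 1.45, 1.79, 1.11 and 1.24 FPKM in WT-DES, a change of 0.70 (SE 0.13, adjusted p = 0.000176). It too was tested through WT-DES alone, and it fell below the minimum with quantile normalization. Magel2 and Peg12 were too low for a test.

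Near Cdkn1c, of 9 tested genes within 1 Mb, 1 was called higher, 4 lower and 4 were not called, beside 28.9% higher and 23.9% lower over all tested genes. Phlda2, which limits growth of the placenta, lies 40.5 kb away and is maternally expressed like Cdkn1c. It was 8.55, 10.07, 10.61 and 12.28 FPKM in WT-veh and 9.07, 0.79, 1.13 and 1.75 FPKM in WT-DES. The first WT-DES sample stayed within the WT-veh range while the other 3 were far below it, and the change was -1.82 (SE 0.39, adjusted p = 0.000687). Slc22a18, 12.7 kb from Cdkn1c, was 20.05 to 26.79 FPKM in WT-veh and 7.77 to 14.68 FPKM in WT-DES (-1.14, SE 0.17, adjusted p = 2.25e-05). The ratio of Cdkn1c to Phlda2 was 0.827 to 1.01 in WT-veh and 1.90, 30.3, 23.0 and 12.7 in the WT-DES samples. Nap1l4, picked after its values were seen, changed by -0.59 (SE 0.07, adjusted p = 3.27e-06), and its call was lost under all 3 scalings and after length correction.

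The 1 gene called higher near Cdkn1c was Igf2, a fetal growth factor that lies 72.6 kb from H19. It was 3.08, 3.72, 3.0 and 5.13 FPKM in WT-veh and 8.77, 11.37, 10.96 and 12.13 FPKM in WT-DES, with no overlap. Its log2 change was 1.33 (SE 0.17, adjusted p = 5.58e-06), although H19 stayed near 0. Igf2r, the receptor that removes Igf2, changed by 0.85 (SE 0.12, adjusted p = 1.72e-05), and its call was lost after correction for transcript length (0.39). The genotype difference was 1.80 for Igf2 and 0.97 for Igf2r. Near Grb10, Ddc fell from 3.32 to 4.99 FPKM in WT-veh to 0.83 to 2.88 FPKM in WT-DES (-0.94, SE 0.33, adjusted p = 0.0175) where Grb10 rose, and its call was lost after rescaling and after length correction. Copg2, which overlaps Mest on the opposite strand, was 22.61 to 24.90 FPKM in WT-veh and 22.06 to 28.84 FPKM in WT-DES (-0.00, SE 0.08, adjusted p = 0.977). Whether the libraries kept strand is not given in the sources used here, so reads shared by Mest and Copg2 cannot be told apart.

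The marker genes of the cell types of the gland moved in the same comparison. In bulk tissue, fewer cells of a type and less RNA per cell cannot be told apart. Of 8 fibroblast markers, 7 were called higher in WT-DES, with a median change of 1.33, beside 1.12 for the 6 imprinted genes above the minimum in WT-veh, and the largest was that of Fbln1 (2.83). With quantile normalization all 8 were called higher, from 1.13 for Dpt to 3.45 for Fbln1. The 6 imprinted genes then ran from 0.45 for Mest to 2.47 for Meg3. Summed FPKM of the fibroblast markers went from 845 to 1000 in WT-veh samples and from 2250 to 2480 in WT-DES samples. Sums were 681 to 1110 among αERKO-veh samples and 560 to 666 among αERKO-DES samples. In the main fit, Peg3 and Dlk1 changed more than 7 of the 8 fibroblast markers, and Meg3 and Plagl1 more than 6. With quantile normalization Dcn (2.83), Lum (3.30) and Fbln1 (3.45) all exceeded Peg3 (2.57), Dlk1 (2.52) and Meg3 (2.47). Grb10 and Mest changed more than 1 of the 8 in the main fit. The part of fibroblast content in the change of the imprinted genes was not tested.

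Endothelial markers were called higher in 6 of 6 cases (median 1.34) and adipocyte markers in 4 of 6 (median 1.53). Of the adipocyte markers, Lep was tested only through WT-DES. Of the 7 leukocyte markers that passed the minimum outside WT-DES, 6 were called higher (median 1.97 over the 7), while Cd52 was lower (-2.73). Of 8 epithelial markers 5 were called lower (median -0.66), as were 7 of 7 genes of SV secretion (median -3.60), 5 of 8 smooth muscle markers (median -1.23) and 2 of 8 skeletal muscle markers. Quantile normalization ended the calls of all 5 epithelial and all 5 smooth muscle markers. It also ended that of Svs4 (-0.48, adjusted p = 0.0952), which left 6 of the 7 SV secretion genes called lower. Of the epithelial markers, 1 was still called lower with rescaling and 2 with length correction, and Cdh1 was called higher with quantile normalization (0.81) and rescaling (0.67). Of 8 proliferation genes, 1 was called higher, Mki67 (0.53). Its call was lost with quantile normalization (0.31, adjusted p = 0.244) and length correction (0.04, adjusted p = 0.886), and in both Cdk1 was called lower. Rescaling called 4 higher, adding Aurkb, Bub1 and Top2a. Alas2, the one erythrocyte gene found of 3, was not called. In αERKO-DES against αERKO-veh, where 3 imprinted genes were called lower, 2 of 8 fibroblast, 4 of 6 adipocyte, 1 of 6 endothelial and 6 of 8 skeletal muscle markers were also called lower. Summed adipocyte markers were 88.2 to 1040 FPKM in αERKO-veh and 17.0 to 61.0 FPKM in αERKO-DES. Their part in those 3 calls was not tested either.

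**Figure D3:**
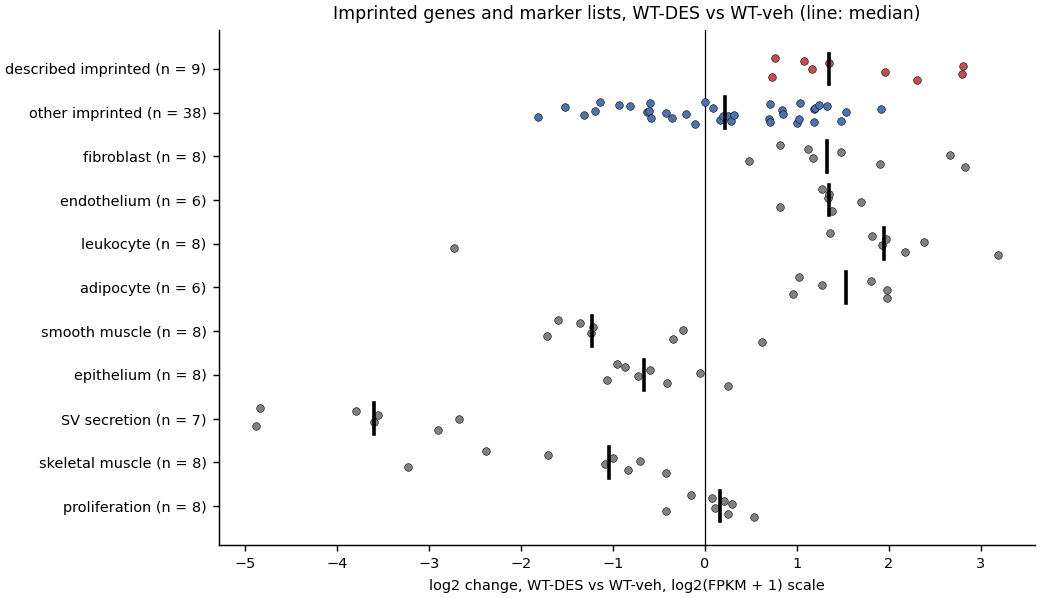
Log2 change in WT-DES against WT-veh of each tested gene (points) and the median of each list (vertical line), for the 9 imprinted genes, the other imprinted genes and 9 lists of marker genes, with the number of tested genes beside each name. The 9 imprinted genes lay between 0.73 and 2.81, and the 38 other imprinted genes were spread from -1.82 to 1.91.

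For each of the 9 genes, the tested genes with the nearest profile over the 16 samples were found among about 11166 others with a mean of at least 5 FPKM, as the mean absolute difference of log2(FPKM + 1) after each gene was centred on its own mean. Cmtm3 was nearest to Cdkn1c at 0.0815, followed by Tmem119 and B3gnt9. Vim, which encodes the filament protein vimentin of mesenchymal cells, was second for Ndn at 0.112, between Tspan7 and Palm. For Peg3 these were Bicc1 (0.161), Thbs2 and Parm1, and for Plagl1 Slc40a1 (0.145), Galnt16 and Mustn1. For Dlk1 they were Il4ra (0.147), Tlr2 and Dkk3, and for Meg3 Itm2a (0.175), Clec3b and Scara5. Grb10 had Fut10 (0.0689), Slc38a6 and Lrrc49, Peg10 had Slc22a23 (0.126), Tns4 and Id4, and Mest had Efhd1 (0.212), Gdf10 and Fgf10. Among the imprinted genes themselves, Cdkn1c and Ndn were the closest pair at 0.175, and Peg3 and Plagl1 followed at 0.224.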

How the data were processed

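RNA-seq of SV covered 16 samples, 4 in each of 4 groups. To make the FPKM table the authors aligned paired-end reads of 126 nt with an average quality above 20 to mm10 with TopHat 2.0.4 and then ran Cufflinks 2.0.2. The annotation, strand setting and any scaling between libraries are not given in the sources used here. Depth is unknown, so precision rests on the spread of the 4 samples of a group.

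Differences were estimated by limma 3.58.1 (R 4.3.3) from log2(FPKM + 1), using 1 model of 4 groups with a variance trend. Genes needed a group mean over 1 FPKM, which left 15988 for testing, and p-values were two-sided with Benjamini-Hochberg adjustment over them. On data simulated for WT-DES against WT-veh with normal noise, 200 of 15988 genes were changed. Of these, 92 of 100 changed by 1 on the log2 scale and 99 of 100 changed by 2 were called, with 3 false calls. The changed genes all had a mean log2(FPKM + 1) above 2, which Dlk1, Peg3, Peg10 and Plagl1 did not reach. In the data 8428 genes were called in this comparison, so these rates need not hold here.

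Coordinates and transcript lengths are from GENCODE M21 on GRCm38, with 22557 genes found by symbol and a further 1018 through a synonym. The length correction subtracted each sample's lowess trend (span 0.3). The named genes were the 10 imprinted genes, Esr1, Igf2, Igf2r, cluster neighbours, the 3 largest rises and falls of the imprinted list, and the 3 genes most like each imprinted gene. The 1 Mb limit for neighbours, and the display of those it added, were set after their values were seen. The genes, lists and tests were chosen with earlier results of these data known. Lists of fibroblast, smooth muscle, epithelial, SV secretion, leukocyte, endothelial, adipocyte, skeletal muscle, proliferation and erythrocyte genes were described beside the results without a test of the lists. The alternatives were another pseudocount (0.1), other minima on FPKM, no fold threshold, 2-group models, sample weights, a replicate block, 3 scalings, the length correction and leaving out each sample.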

Additional observations from a re-analysis of the deposited data

Results flagged for a closer look

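The change after DES differed between WT and αERKO mice in a direct test for 8 of 9 genes, where 29.6% of all tested genes were called in that direction, with differences on the log2 scale of 3.57 for Peg3, 3.13 for Meg3, 3.01 for Plagl1, 2.98 for Dlk1, 1.64 for Ndn, 1.39 for Peg10, 1.27 for Cdkn1c and 0.87 for Grb10. Each was a called rise in WT, while in αERKO mice Meg3, Plagl1 and Ndn were called lower, as were 1.55% of genes that could be called, and Dlk1 and Peg10 could not be called. Those 3 calls fell to 0 in the 2-group model, with quantile normalization and in 7 of the 16 fits that each left out 1 sample. Dlk1 and Peg10 passed the minimum for a test through WT-DES alone, and without them the count was 6 of 7, against 24.7% of genes that passed in another group.

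Single samples lay far from the rest of their group in 3 of 44 checks of the gap to the nearest sample against the range of the group, where chance gives about 1 in 20. H19 was 0.09 FPKM in the fourth WT-veh sample and 0.00 in the other 3, so any value above 0 would have been flagged there. Peg10 was 0.93 FPKM in the second WT-veh sample and 0.55 to 0.60 in the others. Ndn was 22.65 FPKM in the fourth WT-veh sample and 18.63 to 19.23 in the others. All 3 were in WT-veh, and the WT-DES samples of Peg10 and Ndn stayed above these values.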

How the results depend on the processing

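Over 27 alternatives, 8 of the 9 genes stayed called in WT-DES against WT-veh wherever they were tested (Peg10 fell below a minimum of 5 FPKM), and Mest lost its call in 17. When single samples were left out, the count of called genes ran from 8 to 9 in WT-DES against WT-veh, 9 to 9 in αERKO-DES against WT-DES, 2 to 3 in αERKO-DES against WT-veh, 8 to 9 in the genotype difference, and 24 to 28 for the other imprinted genes. For αERKO-veh against WT-veh, with 0 called, it ran from 0 to 2, and it was 1 with a pseudocount of 0.1, 2 with sample weights and 1 with rescaling. For αERKO-DES against αERKO-veh, with 3 called, it ran from 0 to 4, and it was 1 with no minimum on FPKM, 0 in the 2-group model, 0 with quantile normalization, 1 with length correction and 1 with the replicate block, against 2 with a minimum of 5 FPKM and 4, Peg3 added, with a pseudocount of 0.1 or sample weights. The cause of these shifts was not tested. The estimate of the sample weights stopped before it converged. Deviations of same-numbered samples correlated at over 0.1 in 3 of 24 pairs (r from -0.215 to 0.277), among them 2 of the 4 of αERKO-veh with αERKO-DES (0.277 and 0.132), so the numbers were not taken to pair samples. The block left 9 called in WT-DES against WT-veh, and in the genotype difference it added Mest, for 9. Peg10 lost the genotype call (0.74, adjusted p = 0.0687) and Mest the call against WT-DES (-0.70, adjusted p = 0.0875) with quantile normalization.

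Among the 9 tested genes of the set, signs turned only for differences that were not called. In αERKO-veh against WT-veh these were Peg10 (-0.02 with quantile normalization, -0.19 with length correction, -0.02 to 0.11 when single samples were left out, the former without the second αERKO-veh sample), Grb10 (0.09 with rescaling), Mest (0.23 with sample weights) and Ndn (0.05 with sample weights, 0.02 with rescaling). In αERKO-DES against αERKO-veh, Peg10 was 0.16 with quantile normalization, 0.07 with length correction and -0.13 to 0.02 when single samples were left out, the latter without the second αERKO-veh sample. In αERKO-DES against WT-veh, Peg10 (-0.00) ran from -0.12 to 0.14 over all alternatives. FPKM gives no depth, so low values such as those of H19, Dlk1 and Zim1 outside WT-DES have no counting interval.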
